A study of Arabidopsis thaliana with 54 samples.

Results

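The cysteine-rich receptor-like kinases (CRK) of Arabidopsis thaliana were followed here through a peptide treatment of roots. The 40 members were the rows of the count files with the locus numbers of the family, out of 34262 genes in all. A tandem array on chromosome 4, from AT4G23130 (CRK5) to AT4G23320 (CRK24), held 19 of them, and the other 21 lay elsewhere on chromosomes 1, 3, 4 and 5. CRK9, which lies inside the array under the symbol EP1, was not among the members and is given beside them.

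Roots of 5-day-old seedlings were compared between 3 genotypes: Col-0 wild type, the double mutant cif1-2 cif2-2, which lacks the endogenous Casparian strip integrity factors CIF1 and CIF2 (both alleles made by CRISPR), and sgn3-3 (SALK_043282), which carries a T-DNA insertion in SCHENGEN3 (SGN3), the receptor of these peptides. Treatment was 100 nM CIF2 or no peptide and lasted 30, 120 or 480 min, and RNA was taken from whole roots after the aerial parts were cut off. Each of the 18 groups had 3 libraries, 1 from each of 3 batches, which makes 54 libraries with 21328819 to 38588050 reads on genes. The labels do not say whether the batches were separate sowings, so the p-values measure the spread between these libraries. The 3 cif1 cif2 libraries whose titles name CIF2 at 480 min carry a treatment label of no peptide. They were grouped by title and make up that whole group. Results for cif1 cif2 under CIF2 at 480 min therefore rest on the titles and cannot be given without these libraries. The closing section gives the number of members called at least once with them left out. SGN3 itself was at 19.9 to 46.4 CPM (read counts scaled to library size and composition) in the 18 sgn3 libraries and at 90.2 CPM or more in all others. The 4 leaf markers summed to 2.19 to 16.2 CPM and all 8 endodermis markers were above 0 in every library.

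CRK proteins sit in the plasma membrane, with a pair of cysteine-patterned domains outside the cell and a serine/threonine kinase inside. Many CRK genes are known for being switched on by pathogen elicitors, salicylic acid or ozone, and several family members act with the oxidative burst machinery of immune signalling. In the endodermis, CIF peptides that leak past an unsealed Casparian strip bind SGN3 and set off signalling that includes local production of reactive oxygen species.

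Most of the family was at or near the detection limit in roots. Only 18 members reached 1 CPM in at least 1 library and were tested, 6 of 19 in the array and 12 of 21 outside it. The array members tested were CRK5, CRK10, CRK11, EMB1290 (CRK17), CRK18 and CRK19, and the others were CRK2, CRK3, CRK4, CRK25, CRK26, CRK27, CRK28, CRK29, CRK31, CRK32, CRK34 and CRK36. Of the 22 that were not tested, 4 had no read in any library, 15 had at most 3 reads in any library, and the highest count was 25, for CRK40. These 22 genes were left out by the filter, and no peptide response is given for them here. Without the filter 1 of them, CRK41, passed in 1 comparison, cif1 cif2 at 30 min, from 11 reads over the untreated libraries to 37 over the treated ones. Of the 18 tested, 10 were above 1 CPM in all 54 libraries, whereas CRK5, EMB1290, CRK18, CRK32 and CRK36 reached it in at most 1 of the 36 libraries that were sgn3 or had no peptide. Those 5 therefore entered the test almost wholly through CIF2-treated libraries, and counts are given below with and without them.

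Levels per kilobase of exon were ranked over the 9 untreated wild-type libraries, pooled over the 3 times. CRK19, one of the members whose overexpression is known to trigger cell death, had the highest mean at 46.5 CPM per kb, ranging from 35.3 to 58.5. CRK25 followed at 36.5 ± 8.68 (SD, n = 9), CRK29 at 30.0 ± 17.8, CRK3 at 21.4 ± 3.85 and CRK11 at 18 ± 11.8, and these neighbours overlapped in their ranges. The order changed with time: at 120 min CRK29 was the highest, at 52.9 CPM per kb against 49.8 for CRK19, after 16.1 at 30 min, and CRK11 went from 33.5 at 30 min to 8.75 at 480 min. CRK10 was lower, at 2.59 ± 2.61 CPM per kb, and EMB1290 and CRK18 were at 0.0849 ± 0.0372 and 0.111 ± 0.0772. CRK10, CRK11 and CRK19 made up 98.3% to 99.8% of all array CPM in every one of the 54 libraries, so the sum over the array is a sum over 3 genes.

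**Figure D1:**
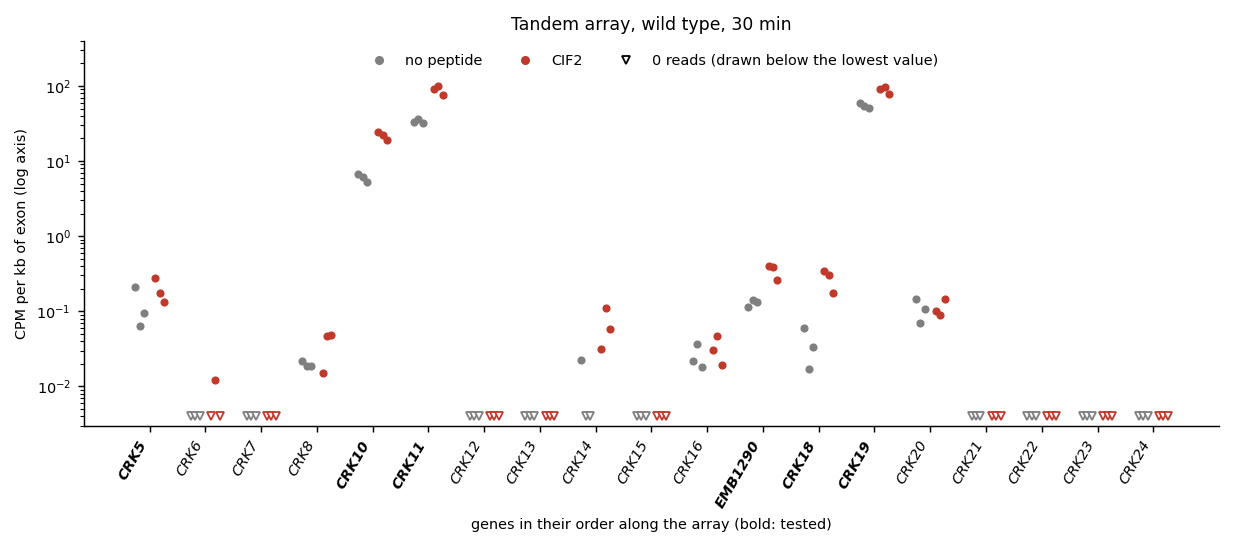
The 19 array genes in their order along the chromosome, with the level in each of the 3 wild-type libraries without peptide and the 3 with CIF2 at 30 min, in CPM per kb of exon on a log axis (triangles mark 0 reads). CRK10, CRK11 and CRK19 lie far above the rest, and most genes between them have no read or few reads in either group.

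Every call of a CIF2 effect among the tested members was upward, and part of the members were not called at any time. In wild type, 6 of the 18 tested members were called higher at 30 min (adjusted p of 0.05 or less in the edgeR quasi-likelihood test, with at least a doubling), against 1.14% of all 19668 genes tested. At 120 min 3 were called against 1.25%, and at 480 min 5 against 1.93%. In cif1 cif2 the counts were 9 at 30 min against 1.81%, 6 at 120 min against 1.77% and 5 at 480 min against 2.12%. No member was called lower in any of these comparisons, against 0.0305%, 0.234% and 0.361% of genes in wild type and 0.0508%, 0.33% and 0.356% in cif1 cif2. By the adjusted p alone, with no fold threshold, 11, 8 and 8 members were higher in wild type (5.78%, 6.3% and 6.88% of genes) and 11, 9 and 7 in cif1 cif2 (8.68%, 7.44% and 6.96%). By the same measure 0 members were lower except CRK4 in cif1 cif2 at 120 min, beside 2.01%, 4.28% and 3.23% of genes in wild type and 2.93%, 6.23% and 3.93% in cif1 cif2. With the 5 low members left out, 13 remained, and 3, 2 and 2 were called in wild type and 5, 3 and 2 in cif1 cif2. Array members accounted for 4, 2 and 4 of the wild-type calls over the 3 times and for 4 at each time in cif1 cif2, whereas the others went from 2 to 1 and 1 in wild type and from 5 to 2 and 1 in cif1 cif2. The difference between the blocks was not tested, and 2 of the 4 array genes, EMB1290 and CRK18, are among the low members. So is CRK32, the 1 call outside the array in wild type at 120 and 480 min and in cif1 cif2 at 480 min. Without the low members, 2 of 3 array members were called in each of the 6 comparisons. Outside the array the calls left were CRK29 in wild type at 30 min, CRK2, CRK29 and CRK31 in cif1 cif2 at 30 min, and CRK31 there at 120 min. The median log2 fold change of the tested members in wild type was 0.77, 0.58 and 0.58 over the 3 times, beside −0.003, −0.003 and −0.014 over all genes. Without the 5 low members it was 0.69, 0.42 and 0.20, and in cif1 cif2 the median of those 13 was 0.64, 0.20 and 0.16 against 1.10, 0.58 and 0.74 over all 18.

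**Figure D2:**
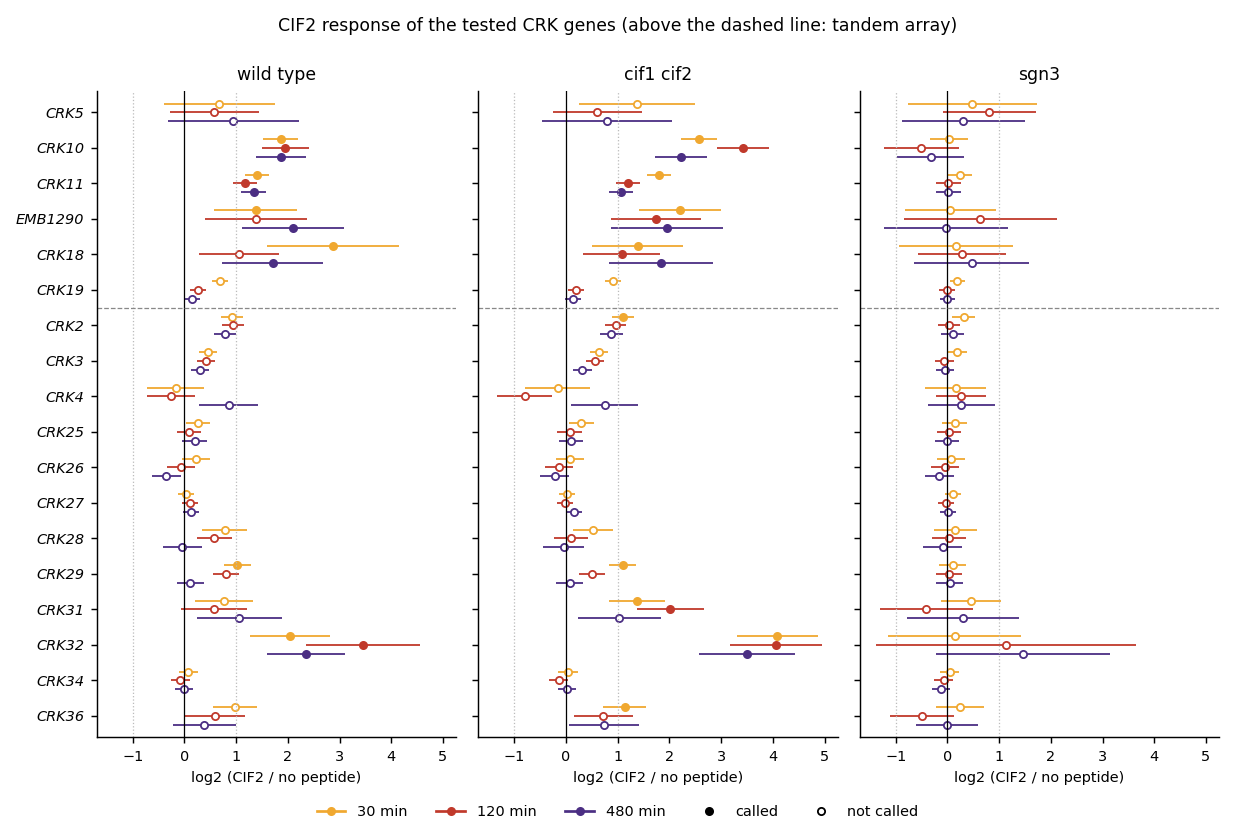
Log2 fold change of each tested member (CIF2 over no peptide) with its 95% confidence interval, by genotype (panels) and time (colours); filled points are called, and genes above the dashed line belong to the array. CRK10, CRK11 and CRK32 are filled at every time in wild type and cif1 cif2, and no point is filled in sgn3.

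The promoters of the members were examined for the W-box, the core bound by WRKY factors, since several CRK genes are known WRKY targets. The W-box was searched as TTGACC or TTGACT on both strands in the 250 bases before each RefSeq gene start. It was present in 25 of the 40 members (62.5%), 12 of 19 in the array (63.2%) and 13 of 21 outside it (61.9%), beside 28.4% of 27438 protein-coding genes. A match is only a run of letters, and tandem duplicates share sequence by descent. RefSeq marks the 5′ end of 15 of the 40 members as partial, where the window starts at the annotated end of the model and may not precede the transcription start. The motif was in 12 of those 15 windows (80%) and in 13 of the 25 with a complete start (52%), beside 27.1% and 28.7% of all protein-coding genes. Of the windows printed here, those of CRK10 and CRK5 have a complete start and those of CRK11, EMB1290, CRK18 and CRK32 a partial one. Windows are printed, with W-boxes in capitals, for the members called in 5 or more of the 6 comparisons and for CRK5, an array member with 3 boxes that passed in none. CRK11 held 4 matches, a tandem pair among them, and CRK10 held 0.
CRK10, chr4:12137745-12137994, plus strand: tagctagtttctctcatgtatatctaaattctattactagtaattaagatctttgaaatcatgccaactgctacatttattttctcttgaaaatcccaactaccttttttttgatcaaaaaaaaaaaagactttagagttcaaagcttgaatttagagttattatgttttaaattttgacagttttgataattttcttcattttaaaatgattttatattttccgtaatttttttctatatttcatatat
CRK11, chr4:12143859-12144108, minus strand: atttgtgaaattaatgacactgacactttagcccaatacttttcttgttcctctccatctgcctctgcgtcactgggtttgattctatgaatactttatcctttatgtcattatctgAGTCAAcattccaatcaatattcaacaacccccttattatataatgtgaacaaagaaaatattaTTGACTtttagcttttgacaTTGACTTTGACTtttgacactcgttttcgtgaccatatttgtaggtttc
EMB1290, chr4:12167027-12167276, minus strand: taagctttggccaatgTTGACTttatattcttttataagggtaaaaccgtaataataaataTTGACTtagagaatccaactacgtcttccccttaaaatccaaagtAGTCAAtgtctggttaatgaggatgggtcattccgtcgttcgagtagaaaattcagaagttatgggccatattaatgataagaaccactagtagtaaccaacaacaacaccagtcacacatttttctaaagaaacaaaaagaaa
CRK18, chr4:12170081-12170330, minus strand: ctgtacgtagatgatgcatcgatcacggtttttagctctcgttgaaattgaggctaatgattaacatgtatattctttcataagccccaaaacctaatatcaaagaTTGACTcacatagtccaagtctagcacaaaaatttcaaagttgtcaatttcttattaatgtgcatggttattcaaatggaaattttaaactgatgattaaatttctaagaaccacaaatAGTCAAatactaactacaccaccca
CRK32, chr4:6971151-6971400, plus strand: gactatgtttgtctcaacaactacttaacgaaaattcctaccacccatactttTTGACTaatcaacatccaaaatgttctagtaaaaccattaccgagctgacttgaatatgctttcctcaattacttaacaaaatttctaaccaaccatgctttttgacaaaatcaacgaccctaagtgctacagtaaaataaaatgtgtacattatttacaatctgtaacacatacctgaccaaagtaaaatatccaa
CRK5, chr4:12120221-12120470, minus strand: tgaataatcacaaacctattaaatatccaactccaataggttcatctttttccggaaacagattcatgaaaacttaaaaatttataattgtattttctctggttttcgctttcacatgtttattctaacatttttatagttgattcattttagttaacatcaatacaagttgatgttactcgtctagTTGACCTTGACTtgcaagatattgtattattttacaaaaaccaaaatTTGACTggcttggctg

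CRK10 (AT4G23180) and CRK11 (AT4G23190) are neighbours in the array (TAIR10.1 chromosome 4, 12137995 to 12140930 on the plus strand and 12140899 to 12143858 on the minus strand), with 3′ ends that overlap by 32 bases. CRK10 was known first as RLK4 and CRK11 as RLK3, both induced by salicylic acid and pathogens. In wild type at 30 min, CRK10 was at 16.9, 15.7 and 13.5 CPM without peptide and at 61.9, 57.4 and 48.2 CPM with CIF2. The groups were far apart, and the fold was 3.63 (log2 1.86, SE 0.169, edgeR adjusted p = 4.4e-11). At 120 min the untreated libraries had dropped to 3.24, 2.04 and 1.93 CPM and the treated ones to 14.1, 6.27 and 7.41 CPM. At 480 min they were at 1.92, 1.72 and 2.48 CPM against 7.22, 7.22 and 7.70 CPM. The level thus fell with time in both arms while the ratio stayed close to its first value (log2 1.95, SE 0.224, and 1.86, SE 0.240). In cif1 cif2 the log2 fold changes of CRK10 were 2.58, 3.42 and 2.22, and every treated library exceeded every untreated one at each time.

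CRK11 was the most abundant of the called members per kb of exon at 30 min in wild type, with or without peptide, whereas at 120 min CRK29 was higher. In wild type at 30 min it was at 83.1, 90.7 and 80.3 CPM without peptide and 230.1, 250.4 and 192.2 CPM with CIF2, and no libraries of the groups overlapped. It rose 2.64-fold (log2 1.40, SE 0.113, edgeR adjusted p = 2.21e-12), and by log2 1.17 and 1.34 at 120 and 480 min. In cif1 cif2 it went from 67.7, 80.5 and 76.5 CPM to 233.4, 299.0 and 250.4 CPM at 30 min, a log2 change of 1.8 (SE 0.114). The later changes there were smaller, 1.20 and 1.07, and the drop from 30 to 120 min was itself past the threshold (−0.60, SE 0.160, edgeR adjusted p = 0.0172), where 3.62% of all genes had a lower shift. Leaving out any 1 batch ended that call (adjusted p = 0.0544 to 0.145). In wild type the same drop was not called.

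EMB1290 (AT4G23250, CRK17, a gene whose loss arrests embryos) and CRK18 (AT4G23260) lie next to each other further along the array (12162004 to 12167026 and 12167416 to 12170080, both minus strand) and were responders at the limit of detection. EMB1290 overlaps CRK16 by 1190 bases, and whether counting used the strand is not stated, so reads in the overlap cannot be assigned with certainty. In wild type at 480 min EMB1290 was at 0.168, 0.235 and 0.142 CPM without peptide and at 0.947, 0.872 and 0.495 CPM with it (log2 2.1, SE 0.486, edgeR adjusted p = 0.00195). It was called in 5 of the 6 comparisons, with 120 min in wild type missing the threshold (log2 1.38, adjusted p = 0.0614). In cif1 cif2 its treated and untreated libraries overlapped at 120 min, where the untreated batch 1 library (0.656 CPM) lay above the treated batch 3 library (0.481 CPM). They overlapped at 480 min too, where the treated batch 3 library (0.121 CPM) lay below its own untreated one (0.135 CPM). CRK18 had 6 reads in all in the untreated wild-type libraries at 30 min and 56 in the treated ones, a ratio of 7.69 with a 95% counting interval of 3.32 to 21.9. It was also called in 5 of 6 comparisons, and in wild type at 120 min it had a log2 change of 1.05 with an adjusted p of 0.0718. With 1 batch left out, the EMB1290 calls in wild type at 480 min and in cif1 cif2 at 30 min held. Its call in wild type at 30 min was lost whichever batch was left out, with log2 changes of 1.23 to 1.58 and adjusted p of 0.0611 to 0.148, and its calls in cif1 cif2 at 120 and 480 min were lost without batch 2 (log2 1.32 and 1.51), the latter also without batch 1 (1.98). CRK18 lost its call in each comparison but wild type at 30 min without 1 batch or another.

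CRK32 (AT4G11480), which sits outside the array next to CRK31 (AT4G11470; chromosome 4, 6971401 to 6973962 and 6967709 to 6970469, both plus strand), had the largest fold change of the tested members in each of the 6 comparisons except wild type at 30 min, where CRK18 rose by log2 2.87, and was below 0.36 CPM in every untreated wild-type and cif1 cif2 library. CRK32 reached 1 CPM in 8 libraries, all with CIF2 in wild type or cif1 cif2, and in 0 of the 36 others. A gene that enters the test through its treated libraries tends to show a large fold, so this ranking does not set CRK32 apart. In cif1 cif2 at 30 min it was at 0.0661, 0.122 and 0.0732 CPM without peptide and at 2.23, 1.47 and 0.969 CPM with CIF2 (log2 4.08, SE 0.389, edgeR adjusted p = 5.96e-11). In wild type the step at that time was from 0.356, 0.186 and 0.0744 CPM to 1.11, 0.916 and 0.502 CPM (log2 2.05, SE 0.382). The difference of the effect between the 2 genotypes did not pass (edgeR adjusted p = 0.704). The groups did not overlap in any of the 6 comparisons, and all 6 were called. At 120 min in wild type the change rested on 4 untreated reads against 48, a ratio of 12.3 with a counting interval of 4.50 to 47.0. CRK31, its neighbour, was called in cif1 cif2 at 30 min (1.06, 0.794 and 0.659 CPM against 2.29, 2.39 and 1.86 CPM, log2 1.38, SE 0.265) and at 120 min (log2 2.02, SE 0.321). In wild type it had log2 changes of 0.77, 0.56 and 1.06 that did not pass.

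**Figure D3:**
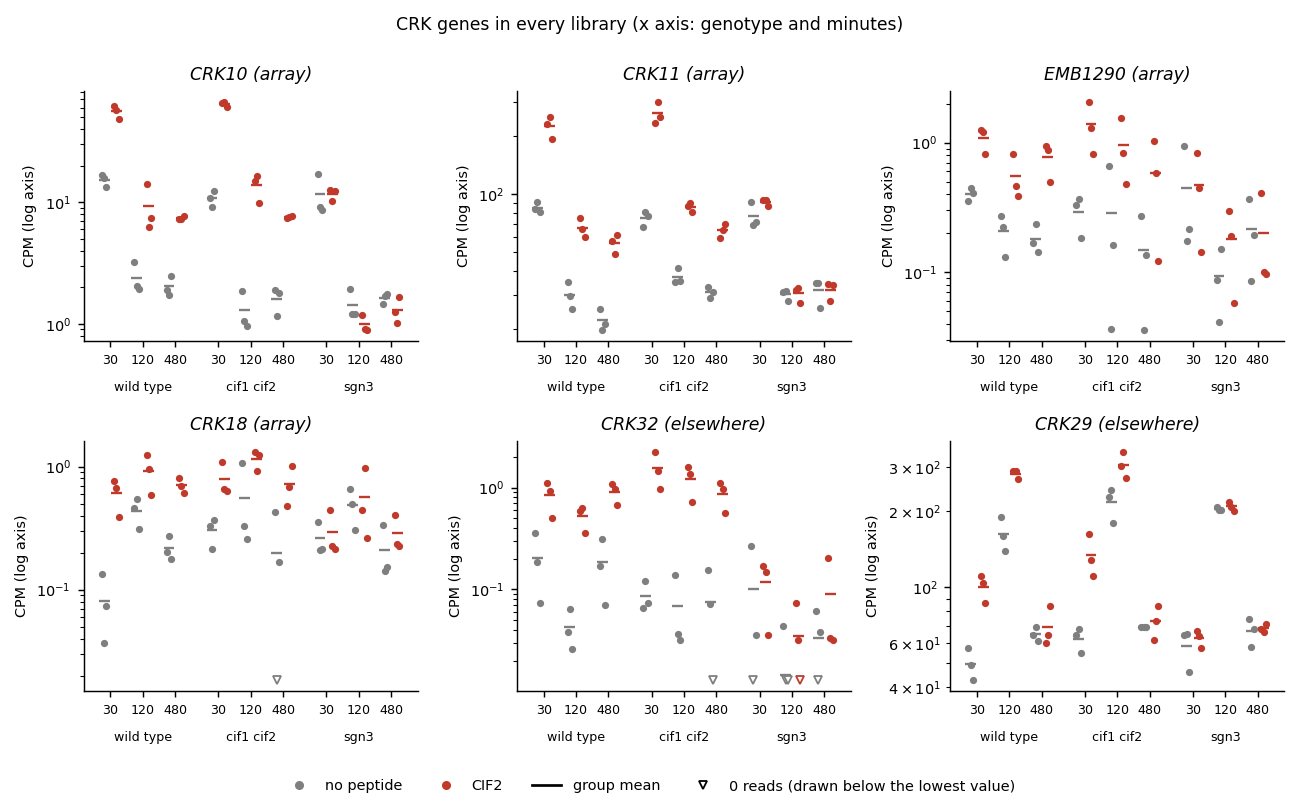
CPM on a log axis in each of the 54 libraries for 4 array members and for CRK32 and CRK29, by genotype and time, grey without peptide and red with CIF2 (bars are means of 3 libraries). In sgn3 the red points overlap the grey ones for all 6 genes except CRK10 at 120 min, where they lie below, and CRK10 and CRK11 fall from 30 to 120 min in both arms of each genotype.

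CRK29 (AT4G21410), CRK2 (AT1G70520) and CRK36 (AT4G04490) lay outside the array and passed the doubling threshold only at 30 min. CRK29, a close relative of CRK28, was at 57.0, 48.8 and 42.8 CPM without peptide and 111.1, 104.1 and 86.2 CPM with CIF2 in wild type (log2 1.02, SE 0.131, edgeR adjusted p = 1.5e-07), or log2 0.98 without batch 2. Its log2 change was 0.80 at 120 min and 0.11 at 480 min, and the decline between the last 2 times passed the test (−0.69, SE 0.180, adjusted p = 0.0225), against 0.727% of all genes with a lower shift. Without batch 1 or batch 2 that decline no longer passed (adjusted p = 0.146 and 0.342). In cif1 cif2 the decline that passed was from 30 to 120 min (−0.60, adjusted p = 0.0376). That decline likewise did not pass without batch 1 or 2 (adjusted p = 0.316 and 0.146). The effect of CRK29 also shifted by −0.22 in wild type from 30 to 120 min (edgeR adjusted p = 0.696). In cif1 cif2 it shifted by −0.42 from 120 to 480 min (edgeR adjusted p = 0.209). Whether the timing differed between the genotypes was not tested. CRK2, which in earlier work on immunity was found to bind and phosphorylate the NADPH oxidase RBOHD, had changes close to a doubling at every time. In cif1 cif2 at 30 min it went from 23.6, 31.6 and 22.7 CPM to 50.8, 59.4 and 57.3 CPM (log2 1.11, SE 0.107), the 1 comparison in which it was called. Its other 5 changes, from 0.78 to 0.96, all passed the adjusted p but not the fold threshold. CRK36, which binds and phosphorylates the immune kinase BIK1, was called in cif1 cif2 at 30 min (0.661, 0.794 and 0.842 CPM against 1.59, 1.76 and 1.71 CPM, log2 1.14, SE 0.206), and had log2 0.98 in wild type at that time.

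A further 4 members passed the adjusted p somewhere without a doubling. CRK19 was at 153.2, 139.7 and 134.6 CPM without peptide and 237.2, 250.7 and 203.5 CPM with CIF2 in wild type at 30 min, a log2 change of 0.69 (SE 0.0756, edgeR adjusted p = 3.8e-09) with no overlap. That change shrank to 0.26 at 120 min and 0.14 at 480 min, and the decline from 30 to 120 min was called in wild type (−0.44, SE 0.106) against 1.12% of genes, and in cif1 cif2 (−0.71, SE 0.107), although in wild type the call was lost without batch 1 or 2 (adjusted p = 0.322 and 0.149). CRK3, adjacent to CRK2 on chromosome 1, rose by log2 0.30 to 0.64 in all 6 comparisons. CRK28 rose in wild type at 30 and 120 min (log2 0.78 and 0.58), with overlapping libraries at 30 min. CRK28 and CRK29 lie on the same strand and overlap by 470 bases, so their counts are not independent of how shared reads were assigned. CRK4, a further member tied to cell death when overexpressed, was higher in wild type at 480 min (log2 0.86) and lower in cif1 cif2 at 120 min (log2 −0.80), from levels of 0.468 to 3.35 CPM in the untreated wild-type and cif1 cif2 libraries, and its effect in cif1 cif2 shifted upward from 120 to 480 min (log2 1.55, SE 0.416, adjusted p = 0.0188), against 3.04% of genes. That shift was not called without batch 1 or 2 (adjusted p = 0.394 and 0.153). The remaining 5 tested members passed in no comparison: CRK25, CRK26, CRK27 and CRK34 stayed between log2 −0.35 and 0.30, and CRK5, known as a regulator of defence and cell death, had log2 0.58 to 1.37 with a lowest adjusted p of 0.111.

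The summed CPM of the array in wild type was 243.7 ± 13 CPM without peptide and 513.3 ± 60.1 CPM with CIF2 at 30 min (SD, n = 3), 164.2 ± 18.2 and 234.1 ± 13.4 CPM at 120 min, and 117.7 ± 3.09 and 167.5 ± 16.3 CPM at 480 min. These sums were 2.11, 1.43 and 1.42 times higher with CIF2, and CRK19 made up much of them. Without CRK19 the sums were 101.2 and 282.8, 33.7 and 78.6, and 25 and 65.2 CPM, which is 2.79, 2.33 and 2.61 times higher. In sgn3 it was 225.9 ± 25.6 and 259.4 ± 10.9 CPM at 30 min and 170.0 ± 7.28 and 169.0 ± 10.4 CPM at 120 min. The members outside the array summed to 290.1 ± 26.6 and 417.3 ± 47.7 CPM in wild type at 30 min. Their sums were 451.8 ± 74.68 and 649.3 ± 29.05 CPM at 120 min, and 278.4 ± 19.65 and 320.9 ± 23.58 CPM at 480 min. In whole-root RNA, more cells of a type and more transcript per cell cannot be told apart. The 8 endodermis markers together lay at 786.4 to 985.4 CPM without peptide and 680.9 to 861.5 CPM with CIF2 in wild type at 30 min, where 6 CRK members were called. In cif1 cif2 at 120 min they lay at 495.0 to 720.7 CPM and 1417 to 1537 CPM, with 5 of the 8 called higher. The markers did not all move together. By the adjusted p alone 6 were higher and 2 lower in cif1 cif2 at 120 min (7.44% and 6.23% of all genes). In wild type at 30 min 1 was higher and 2 lower (5.78% and 2.01%). The part of the markers in the CRK values was not tested. The 4 leaf markers summed to 3.62 to 5.45 CPM without peptide and 4.89 to 16.2 CPM with it in cif1 cif2 at 30 min, with 1 of 4 (CAB2) called higher.

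In sgn3 no member was called at any time, against 0.0254%, 0% and 0% of all genes called higher. At an unadjusted p under 0.05, 4 members were higher at 30 min (CRK2, CRK3, CRK11 and CRK19) and none later, and the lowest adjusted p over the members was 0.572. The share of all genes at that unadjusted p is not given here, so the 4 have no background beside them. DESeq2 and limma-trend also called 0 members. CRK10 was at 17.2, 9.18 and 8.62 CPM without peptide and 12.6, 10.3 and 12.3 CPM with CIF2 at 30 min in sgn3, and the groups overlapped. CRK11 was at 90.4, 69.2 and 71.4 CPM and 93.0, 93.2 and 86.2 CPM (log2 0.24, 95% interval 0.01 to 0.47). For CRK2, CRK3 and CRK19 every treated sgn3 library at 30 min lay above every untreated one. CRK2 was at 24.46, 25.81 and 23.45 CPM against 33.65, 30.25 and 27.98 CPM with CIF2. CRK3 was at 59.5, 56.53 and 57.95 CPM against 68.22, 65.45 and 65.19 CPM. CRK19 was at 143.9, 142.5 and 122 CPM against 163.7, 152 and 150.8 CPM. Over the 13 members that did not depend on treated libraries for testing, log2 changes in sgn3 ran from −0.51 to 0.46.

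The difference between genotypes was tested directly as an interaction. At 30 min the CIF2 effect was smaller in sgn3 than in wild type for CRK10 (log2 −1.84, SE 0.247, edgeR adjusted p = 4.62e-06), CRK11 (−1.16, SE 0.158), CRK29 (−0.92, SE 0.184), CRK2 (−0.61, SE 0.152) and CRK19 (−0.50, SE 0.107), against 1.48% of all genes. At 120 min the difference passed for CRK10 (−2.46), CRK11 (−1.15), CRK2 (−0.91), CRK29 (−0.77) and CRK3 (−0.48), against 2.36%, and at 480 min for CRK10 (−2.18), CRK11 (−1.32) and CRK2 (−0.68), against 3.57%. No member had a larger effect in sgn3, where 0.402%, 0.834% and 0.946% of genes did. CRK10 and CRK11 passed whichever batch was left out, whereas other calls were lost: at 30 min CRK2 without batch 2 or 3 (adjusted p = 0.395 and 0.174), CRK19 without batch 1 or 2 (0.11 and 0.277) and CRK29 without batch 2 (0.266), at 120 min CRK29 without batch 2 (0.209) and CRK3 when any 1 batch was left out (0.0682 to 0.18), and at 480 min CRK2 without batch 2 (0.0657). For the low genes the interaction did not pass: EMB1290 had −1.32, −0.75 and −2.13 with 95% intervals as wide as −3.72 to −0.54 at 480 min, CRK18 had −2.69 at 30 min (interval −4.47 to −0.92, adjusted p = 0.125), and CRK32 had −1.91 at 30 min (interval −3.48 to −0.34, adjusted p = 0.307). Their sgn3 response is thus not shown to differ from that of wild type in this test, although the wild-type effect was called and the sgn3 effect was not.

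Between cif1 cif2 and wild type, the difference of the CIF2 effect passed the adjusted p for no member at any time, against 0.0153%, 0.29% and 0.00508% of genes with a larger effect in cif1 cif2. Unadjusted p-values under 0.05 were found for 4, 3 and 0 members over the 3 times. The closest was CRK10 at 120 min, with an effect larger in cif1 cif2 by log2 1.48 (95% interval 0.75 to 2.20, edgeR adjusted p = 0.0565), and this 1 gene was called by limma-trend, by DESeq2 and by edgeR without batch 1. Other intervals that excluded 0 included CRK32 at 30 min (log2 2.04, 0.71 to 3.37) and CRK31 at 120 min (1.45, 0.52 to 2.39). CRK28 at 120 min went the other way (−0.48, −0.95 to −0.01). A failure to pass is thus not shown to be an equal effect. Under CIF2 at 120 min CRK32 was higher in cif1 cif2 than in wild type, at 1.59, 1.35 and 0.722 CPM against 0.587, 0.627 and 0.358 CPM (log2 1.20, SE 0.289, adjusted p = 0.0230), the 1 member called there against 0.132% of genes. This call was lost when any 1 batch was left out (adjusted p = 0.137 to 0.222), without the batch block (0.251) and in limma-trend (0.111). At 30 and 480 min no member was called between these treated groups, against 0.0254% and 0.00508% of genes, with 5 and 1 members at an unadjusted p under 0.05. Without peptide no member was called between either mutant and wild type at any time, where 0.0356%, 0.0559% and 0.0305% of genes were called higher in cif1 cif2 at 30, 120 and 480 min, 0.0559%, 0.0254% and 0.0254% lower, 0.0153%, 0.0203% and 0.0153% higher in sgn3, and 0.0356%, 0.0305% and 0.0407% lower. The number of members at an unadjusted p under 0.05 in these 6 comparisons was between 2 and 6, and limma-trend and DESeq2 also called 0. For none of the counts at an unadjusted p is the share of all genes given, so they are not read as a result. The nearest to the threshold was CRK28 in cif1 cif2 at 120 min (log2 0.57, adjusted p = 0.0778).

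The untreated libraries themselves changed with time, in ways that split the family. From 30 to 120 min without peptide, 3 members were called higher and 4 lower in wild type (2.06% and 3.4% of all genes), 4 and 3 in cif1 cif2 (2.82% and 2.3%) and 2 and 5 in sgn3 (2.33% and 2.88%). CRK29 went from 49.5 ± 7.15 to 162.8 ± 25.3 CPM in wild type (log2 1.72, SE 0.132, edgeR adjusted p = 6.8e-14) and rose by log2 1.8 and 1.82 in cif1 cif2 and sgn3. CRK28 went from 5.18 ± 1.83 to 20.6 ± 4.78 CPM (log2 2.00, SE 0.199), with 1.98 and 2.15 in the mutants. CRK10 moved the other way, by log2 −2.70, −3.07 and −3.02 in wild type, cif1 cif2 and sgn3, and CRK11 by −1.51, −1.01 and −1.35. CRK4 and CRK5 rose in cif1 cif2 (log2 1.11 and 1.40), while CRK36 fell in wild type (−1.15) and CRK31 in cif1 cif2 and sgn3 (−1.02 and −1.22). The means of CRK5, CRK31 and CRK36 in these groups were below 1 CPM. CRK5 went from 0.1834 to 0.5054 CPM with overlapping libraries (edgeR adjusted p = 0.0456). The other calls had 10 reads or fewer in 1 of the groups compared: CRK18 had 41 reads at 120 min against 6 at 30 min in wild type (ratio 5.56, counting interval 2.35 to 16.0), EMB1290 had 9 against 43 in sgn3 (ratio 0.220, 0.0945 to 0.459), and CRK32 had 4 against 15 in wild type (ratio 0.217, 0.0524 to 0.681) and 1 against 10 in sgn3 (ratio 0.105, 0.00243 to 0.740). From 120 to 480 min, 1 member rose and 3 fell in wild type (1.68% and 3.38% of genes), 0 and 6 in cif1 cif2 (1.24% and 4.01%) and 0 and 3 in sgn3 (1.55% and 3.37%). CRK29 came back down by log2 −1.32, −1.64 and −1.62, and CRK4 fell by log2 −1.40, −1.67 and −1.43. CRK28 fell in cif1 cif2 and sgn3 (−1.58 and −1.43), CRK2, CRK5 and CRK18 in cif1 cif2 (−1.19, −1.47 and −1.46) and CRK31 in wild type (−1.07), while CRK32 rose in wild type from 4 to 15 reads (ratio 4.44, counting interval 1.42 to 18.4). The falls of CRK5 and CRK18 were between means below 1 CPM with overlapping libraries (edgeR adjusted p = 0.043 and 0.0261).

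**Figure D4:**
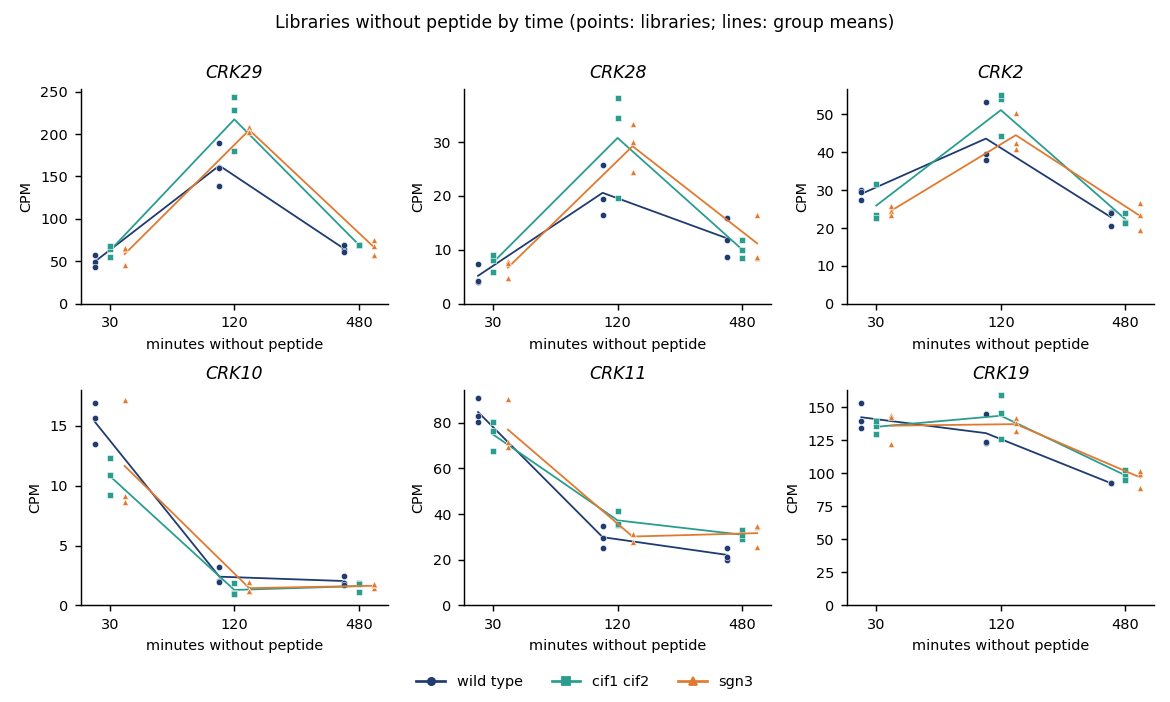
CPM of 6 members in the libraries without peptide at 30, 120 and 480 min, by genotype (points are libraries, lines join the means of 3). CRK29, CRK28 and CRK2 peak at 120 min and CRK10 and CRK11 are highest at 30 min in all 3 genotypes.

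Around the family, genes of related function were counted from fixed lists, beside the 1.14%, 1.25% and 1.93% of all genes called higher in wild type at the 3 times and the 1.81%, 1.77% and 2.12% in cif1 cif2. Of 7 immune partners and pathway genes (RBOHD, RBOHF, BIK1, BAK1, FLS2, SGN3 and SGN1), 1, 1 and 0 passed upward over the 3 times in wild type, and cif1 cif2 had 2, 2 and 1. FLS2, the flagellin receptor, had log2 changes of 1.26, 1.72 and 0.66 in wild type, and RBOHD had 0.80, 0.37 and 0.25. Of 6 WRKY genes, 2, 2 and 1 were called in wild type and 3, 2 and 1 in cif1 cif2. WRKY18 and WRKY40 were called in wild type at 30 min (log2 1.11 and 1.03), and WRKY53 at 120 min (2.49). Of 7 tested salicylic acid genes out of 10, 2, 1 and 1 were called higher in wild type and 3, 0 and 0 in cif1 cif2. No gene of these lists was called in sgn3. EP1 (CRK9), inside the array between CRK8 and CRK10, was called at 30 min in wild type and cif1 cif2 (log2 2.15, SE 0.340, and 2.84, SE 0.380) and at no later time (log2 0.02 and 0.94 in wild type).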

How the data were processed

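The authors trimmed the reads with cutadapt 1.8, aligned them with STAR 2.5.3a to the TAIR10 genome and counted them per gene with HTSeq 0.9.1, and the deposited files hold these raw counts, 1 file per library. Whether counting used the strand is not given in the sources used here. Lines that name no gene (4.72% to 5.15% of the total, of which 3.60% to 3.96 percentage points were reads with more than 1 alignment) stayed out of library sizes and tests. Genes of the family that share sequence therefore lose reads: up to 21.9% of the 50-base exonic stretches of a member (CRK6) occur elsewhere in the genome, and 0.313% to 4.7% of those of CRK10, CRK11, EMB1290, CRK18 and CRK32.

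All 54 libraries were fitted in one edgeR 4.0.16 quasi-likelihood model (R 4.3.3) with 18 group means, TMM factors and the batch as a block, as in the authors' linear model. Genes with 1 CPM in at least 1 library were kept (19668), p-values were adjusted by Benjamini-Hochberg over all of them within each comparison, and a gene was called at an adjusted p of 0.05 or less and a log2 change of at least 1. Differences between effects used the adjusted p alone. SE is the log2 change divided by the square root of F. Intervals of a ratio of reads are exact binomial and cover counting error only. Batch numbers of the titles paired the libraries: deviations from group means correlated at 0.270 on average over 459 pairs of the same batch and at −0.135 over 918 others. Depth was 21328819 to 38588050 reads on genes, with a median of 28866174. On simulated counts (19334 genes, wild type at 120 min) 98 of 100 genes changed 2.5-fold and 100 of 100 changed 4-fold were called, with 0 false calls. The changed genes were drawn only from those above a minimum mean count, which CRK5, EMB1290, CRK18, CRK32 and CRK36 do not reach. No batch effect was simulated either, so the simulation does not cover the calls of these members. Alternatives were limma-trend (limma 3.58.1), DESeq2 1.42.0, its size factors in edgeR, other filters and thresholds, no block, only the libraries compared, each batch left out, and omission of the 3 libraries whose labels conflict. Positions and upstream windows are from RefSeq's annotation of TAIR10.1, whose nuclear sequence is that of TAIR10. The members, the lists and the tests were chosen with earlier results of these data known. Every member is accounted for: those called in a CIF2 effect are described one by one, those called elsewhere are named, and the rest are given by counts and ranges.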

Additional observations from a re-analysis of the deposited data

Results flagged for a closer look

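The CIF2 effect differed between sgn3 and wild type, by the interaction test of edgeR, for 6 members, always with the smaller effect in sgn3. At 30 min the differences were log2 −0.61 for CRK2, −1.84 for CRK10, −1.16 for CRK11, −0.50 for CRK19 and −0.92 for CRK29. At 120 min they were −0.91 for CRK2, −0.48 for CRK3, −2.46 for CRK10, −1.15 for CRK11 and −0.77 for CRK29. At 480 min they were −0.68 for CRK2, −2.18 for CRK10 and −1.32 for CRK11. The differences of CRK10 and CRK11, and of CRK2 at 120 min, passed whichever batch was left out. Each of the others was lost without 1 batch or another.

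The effect also differed between times. From 30 to 120 min it became smaller for CRK19 in wild type (−0.44) and for CRK11, CRK19 and CRK29 in cif1 cif2 (−0.60, −0.71 and −0.60). From 120 to 480 min it became smaller for CRK29 in wild type (−0.69) and larger for CRK4 in cif1 cif2 (1.55). Of these shifts, only that of CRK19 in cif1 cif2 passed whichever batch was left out. The groups held 3 libraries each, too few for a check of single libraries against their group.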

How the results depend on the processing

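Over 88 calls of single members, 983 of 1115 values under the alternatives kept the direction and the side of the threshold, 132 fell short of the threshold and 0 reversed. The CIF2 calls of CRK10, CRK11, CRK32, CRK31, CRK2 and CRK36 held under each alternative that could be run, and those of EMB1290, CRK18 and CRK29 did not. The batch pairs the libraries, so its block was part of the main model. Without the replicate block, 3 members instead of 5 were called in wild type at 480 min, 1 instead of 4 for the shift of the effect with time, and 0 instead of 1 between cif1 cif2 and wild type under CIF2, while the 9 members called at least once stayed 9. With no fold threshold 11, 8 and 8 members passed in wild type over the 3 times, 10 did in the double mutant at 120 min, and 8 members outside the array instead of 5 were called at least once. For the difference of the effect between cif1 cif2 and wild type, limma-trend and DESeq2 each called 1 (CRK10) instead of 0. Between those genotypes under CIF2, limma-trend called 0, DESeq2 called 0 and gave CRK32 no adjusted p, and an adjusted p of 0.01 left 0. That stricter p left 1 shift with time.

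With each batch left out in turn, the counts ranged from 9 to 10 for members called at least once, from 4 to 4 for the array, from 5 to 6 outside it, from 0 to 1 for the difference between cif1 cif2 and wild type, from 4 to 5 for that between sgn3 and wild type, from 8 to 11 for time without peptide (12 with all batches), from 1 to 3 for the shifts and 0 throughout for cif1 cif2 against wild type under CIF2. In wild type they ranged from 4 to 7, 3 to 4 and 4 to 6 at 30, 120 and 480 min, and in cif1 cif2 from 7 to 8, 4 to 7 and 3 to 5. Without the 3 libraries with conflicting labels, cif1 cif2 at 480 min had no CIF2 library and could not be tested, and 9 members were still called at least once. Without the filter on low counts 36 members entered the fit, and CRK41 was the 1 added member to pass (cif1 cif2 at 30 min, log2 1.84, SE 0.564, edgeR adjusted p = 0.0316). Depth sets the precision of the members that rest on few reads.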
